A study of Mus musculus with 24 samples.

Results

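Loss of Dgcr8 was examined in glial progenitor cells (GPCs) that had been derived from mouse embryonic stem cells and kept undifferentiated. The comparison set the group labelled Dgcr8 delta/delta, undiff, mock (3 arrays, knockout in the text that follows) against the group labelled Dgcr8 flox/delta, Undiff (3 arrays). These 6 of the 19 arrays of the series were chosen by their group labels and by hybridization number, which was 1 for all of them, and 9129 genes could be tested. The flox/delta cells carried a conditional allele opposite a deleted one, so every array, controls included, came from cells with at least 1 deleted allele. All cells were grown in N2 medium with the growth factors EGF and FGF. The knockout came from tamoxifen, the drug that triggers deletion of the conditional allele, given at 1 uM over 16 h and at 100 nM over 16 h. The labels name tamoxifen and a mock treatment for the knockout arrays and neither of them for the flox/delta arrays, so the genotype and these treatments cannot be told apart. Whether the replicates were separate cultures is not given in the sources used here, and p-values measure the spread between these arrays, which may be technical.

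Dgcr8 encodes the RNA-binding partner of Drosha in the microprocessor, the nuclear complex that cuts hairpins out of primary microRNA transcripts. A mature microRNA guides an Argonaute protein to messenger RNAs, chiefly by pairing of its seed (bases 2 to 8) with sites in their 3' untranslated regions, and lowers their level or translation. Without Dgcr8 most microRNAs are lost, and the messenger RNAs they hold down can rise. In the developing brain let-7 and miR-125 accumulate as progenitors mature, and the series gave these microRNAs back to knockout cells. The mature sequences below, from RefSeq with build GRCm38.p6, are shown because the target lists in the results are grouped by them. Capitals mark the seed, and each sequence runs 5′ to 3′.
mmu-let-7a-5p: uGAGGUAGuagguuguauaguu
mmu-let-7i-5p: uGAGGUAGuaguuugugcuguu
mmu-miR-98-5p: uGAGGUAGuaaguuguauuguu
mmu-miR-125a-5p: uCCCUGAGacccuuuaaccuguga
mmu-miR-125b-5p: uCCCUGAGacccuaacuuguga
mmu-miR-17-5p: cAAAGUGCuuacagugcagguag
mmu-miR-106b-5p: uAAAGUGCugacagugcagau
mmu-miR-9-5p: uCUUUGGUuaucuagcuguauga
mmu-miR-29a-3p: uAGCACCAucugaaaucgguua

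All 9 let-7 family names found in the RefSeq table, let-7a to let-7g, let-7i and miR-98, shared the seed GAGGUAG, and they differ from each other only outside it. The copy of let-7a shown lies at chr13:48538239-48538260 on the minus strand, let-7i at chr10:122985698-122985719 on the minus strand and miR-98 at chrX:151913229-151913250 on the plus strand. Both miR-125 forms had the seed CCCUGAG, with miR-125a at chr17:17830817-17830840 on the plus strand. The let-7e gene (chr17:17830366-17830387, plus strand) is its neighbour on that chromosome. The 4 names of the miR-17 and miR-106 family (miR-17, miR-20a, miR-93 and miR-106b) shared AAAGUGC. The arrays measure messenger RNAs and not mature microRNAs, so the loss of these sequences itself was not measured here.

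Expression was measured on Illumina mouse bead arrays, on which every probe has an intensity and a p-value for detection over negative controls. Mean raw signal ran from 304 to 474 over the 6 arrays, and 11788 to 12527 of 25697 probes were detected at a detection p under 0.05. Knockout replicate 3 and flox/delta replicate 3 were the dimmest of their groups. All levels below are normalized log2 signal, so a difference of 1 is 2-fold, and differences are knockout minus flox/delta ± SE (n = 3 arrays a group). The number of arrays limits the precision. As these are bulk RNA samples, fewer cells of a type and less RNA per cell cannot be told apart. Of 10 microglia and blood markers with a probe none was detected on any of the 6 arrays, and Gfap, the filament protein of mature astrocytes, was not detected either. Of 28 neural progenitor markers with a probe 20 could be tested. Among them the neural stem cell genes Sox2, Nes and Fabp7 were above background on all 6 arrays. From the same list Emx2, Hopx, Msi1 and Pax6 were detected on none of the 6.

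Most of the measured genes differed between knockout and flox/delta progenitors. In limma's test with Benjamini-Hochberg adjustment, 2579 genes were higher in the knockout and 2426 were lower at an adjusted p under 0.05, which is 28.3% and 26.6% of the 9129 tested and 54.8% in all. At least 2-fold differences were found for 560 higher genes (6.13%) and 620 lower genes (6.79%). Without background correction, which leaves dim probes compressed, these were 261 and 295, and list medians shrank too. At least 8-fold differences numbered 31 upward and 56 downward. The groups did not overlap for 5690 genes (62.3%). The median difference over all genes was 0.02. Because so many genes passed, each count of list members below is to be read against these shares. By chromosome the medians lay between -0.05 and 0.07 over 20 chromosomes. With normexp background correction and median scaling 2882 genes passed, and 1339 passed in a test against a 1.5-fold difference.

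**Figure D1:**
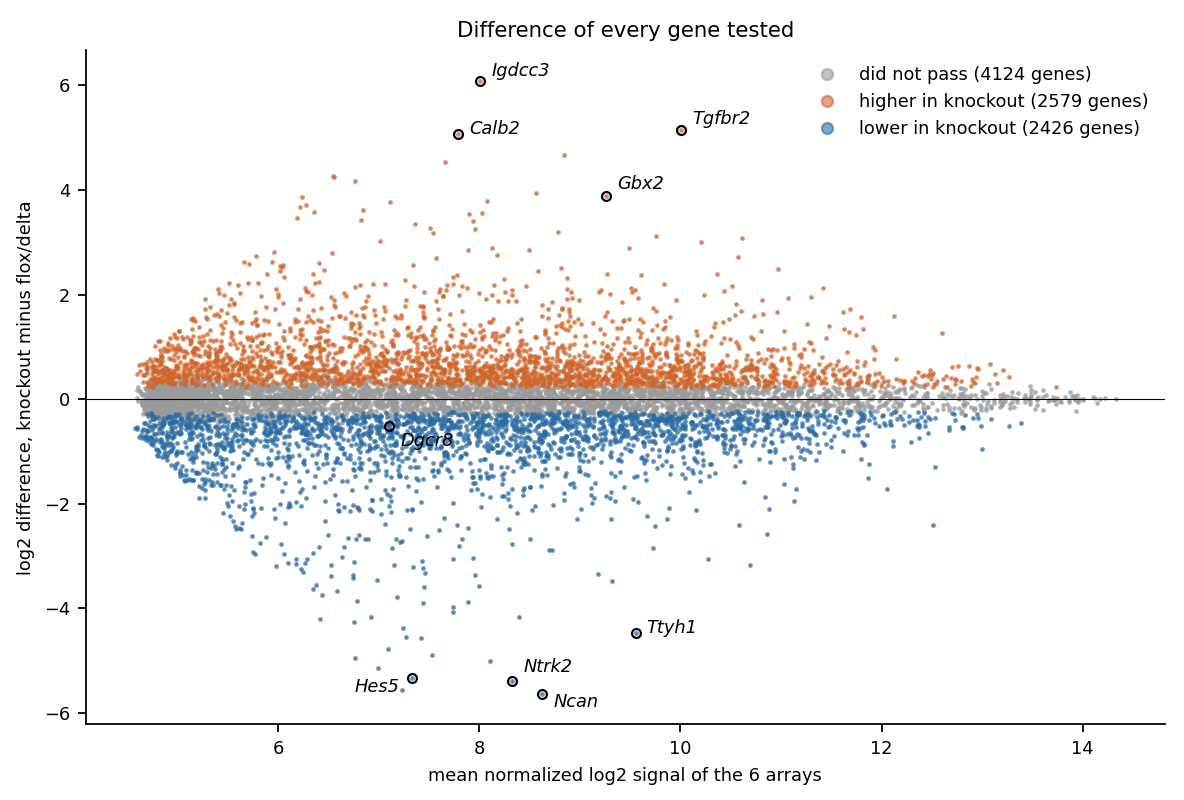
Each point is 1 of 9129 genes, placed by its mean normalized log2 signal over the 6 arrays (x axis) and its log2 difference, knockout minus flox/delta (y axis). Orange marks 2579 genes that were higher, blue 2426 that were lower and grey 4124 that did not pass, and Igdcc3 (6.08) and Ncan (-5.63) stand at the edges.

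Dgcr8 itself had log2 signals of 7.31, 7.50 and 7.28 on the flox/delta arrays and 6.82, 7.04 and 6.67 on the knockout arrays. The groups did not overlap, and the difference was -0.52 ± 0.12 (adjusted p = 0.00495, limma). With normexp and median scaling it no longer passed (-0.45, adjusted p = 0.141). The gene has 1 probe, whose place relative to the deleted part is not known here, so this value checks nothing about the deletion.

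Some genes were above background in 1 genotype only. Genes detected on none of the 3 flox/delta arrays that passed as higher made up 1.38% of those tested, and genes detected on none of the 3 knockout arrays that passed as lower made up 1.98%. For these the fold is a lower bound, the brighter group's mean against the background level, and is written as at least so many fold. Such genes entered the test only through the genotype that expresses them. Their direction in the list counts below was therefore set by the filter. Their probes drop out of the test when an array of the genotype that expresses them is left out, because a probe had to be detected on 3 arrays. Of 1350 genes that passed and had more than 1 kept probe, 117 had another kept probe of opposite sign.

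The largest rise belonged to Igdcc3, a cell surface gene of the immunoglobulin superfamily and a known let-7 target. Its log2 signals were 5.21, 4.71 and 4.98 on the flox/delta arrays and 11.10, 10.95 and 11.10 on the knockout arrays, and it was above background on 2 of the 3 flox/delta arrays. The groups lay far apart, with a difference of 6.08 ± 0.13 (adjusted p = 1.52e-08). Tgfbr2, the receptor that binds TGF-beta ligands, measured 7.12, 7.46 and 7.74 on the flox/delta arrays and 12.55, 12.59 and 12.58 on the knockout arrays. Every knockout array was higher than every flox/delta array, by 5.13 on average, and the other probe of the gene gave 2.78. Calb2, the calcium-binding protein calretinin of interneurons, was at 5.39, 5.01 and 5.38 on the flox/delta arrays and 10.29, 10.40 and 10.27 on the knockout arrays. Its groups were as clearly apart (5.06 ± 0.12, and 3.96 on its other probe).

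The other 12 of the 15 largest rises came from several kinds of genes. Matrix and membrane-binding proteins were among them: Thbs2, a thrombospondin, rose by 4.16 ± 0.10 and was detected on only 1 flox/delta array, Dcn (decorin) was at least 10.8-fold higher (with a difference of 2.0 on its other probe), and Anxa5, a calcium-dependent lipid-binding annexin, rose by 4.53 ± 0.11. The patterning gene Gbx2, a homeobox factor of the anterior hindbrain, measured 7.04, 7.37 and 7.56 on the flox/delta arrays and 11.14, 11.23 and 11.24 on the knockout arrays. Its groups did not overlap, and it rose by 3.88 ± 0.13 (adjusted p = 7.58e-08). The G protein regulators Rgs16 and Rgs8 were at background on all flox/delta arrays and at least 15.3-fold and 10.5-fold higher in the knockout. Tnnt1, the troponin T of slow muscle, was likewise at least 15.4-fold higher. Gxylt2, a xylosyltransferase that modifies Notch receptors, was at least 9.94-fold higher, and the zinc finger homeobox gene Zfhx2 rose by 3.79 ± 0.12. Sel1l3 (4.67 ± 0.18), Glipr2 (3.95 ± 0.09, and 1.55 on its other probe) and Sertm1 (3.76 ± 0.16) complete the group.

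The largest fall was that of Ncan, which encodes the brain matrix proteoglycan neurocan. It measured 11.63, 11.23 and 11.46 on the flox/delta arrays and 6.15, 5.83 and 5.45 on the knockout arrays. All knockout arrays lay below all flox/delta arrays, and the difference was -5.63 ± 0.18 (adjusted p = 5.08e-08). Hes5, a transcriptional repressor that Notch signalling switches on, was at 10.50, 9.91 and 9.58 on the flox/delta arrays and 4.69, 4.56 and 4.75 on the knockout arrays and was above background on only 1 knockout array. The difference was -5.33 ± 0.20, and -4.84 on its other probe. Ntrk2, the receptor of BDNF, measured 11.24, 10.90 and 10.92 on the flox/delta arrays and 5.50, 5.50 and 5.91 on the knockout arrays. Its groups were likewise apart (-5.38 ± 0.14), while its other probe gave only -0.75.

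Further falls among the 15 largest included Ttyh1, a tweety family membrane protein gene of neural progenitors, with 12.08, 11.68 and 11.62 on the flox/delta arrays and 7.37, 7.43 and 7.15 on the knockout arrays. The groups did not overlap (-4.47 ± 0.14, and -2.57 on the other probe). Apoe, the lipid carrier of astrocytes, fell by 4.26 ± 0.21 and was above background on only 1 knockout array. The potassium channel partner gene Kcnip3 fell by 5.01 ± 0.14. Myt1, a zinc finger factor of neural and oligodendrocyte progenitors, fell by 4.78 ± 0.13 and Plxnb3, a semaphorin receptor gene, by 4.57 ± 0.13. Brinp2 (-4.89 ± 0.08), Cmtm5 (-4.37 ± 0.12) and the F-box gene Fbxo2 (-4.54 ± 0.20) moved the same way. Myt1 and Fbxo2 were above background on 2 knockout arrays each. On no knockout array were Mmd2, Draxin, Scrg1 or Omg above background: Mmd2 was at least 38-fold lower, Scrg1 at least 22.3-fold and Omg, the oligodendrocyte myelin glycoprotein, at least 13.5-fold. Draxin, a repulsive guidance cue of axons, was at least 27.9-fold lower, but its other probes gave -1.08 to -0.23. Without flox/delta replicate 1, 2 or 3, Draxin was represented by another probe and did not pass (differences of -0.20, -0.21 and -0.29).

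**Figure D2:**
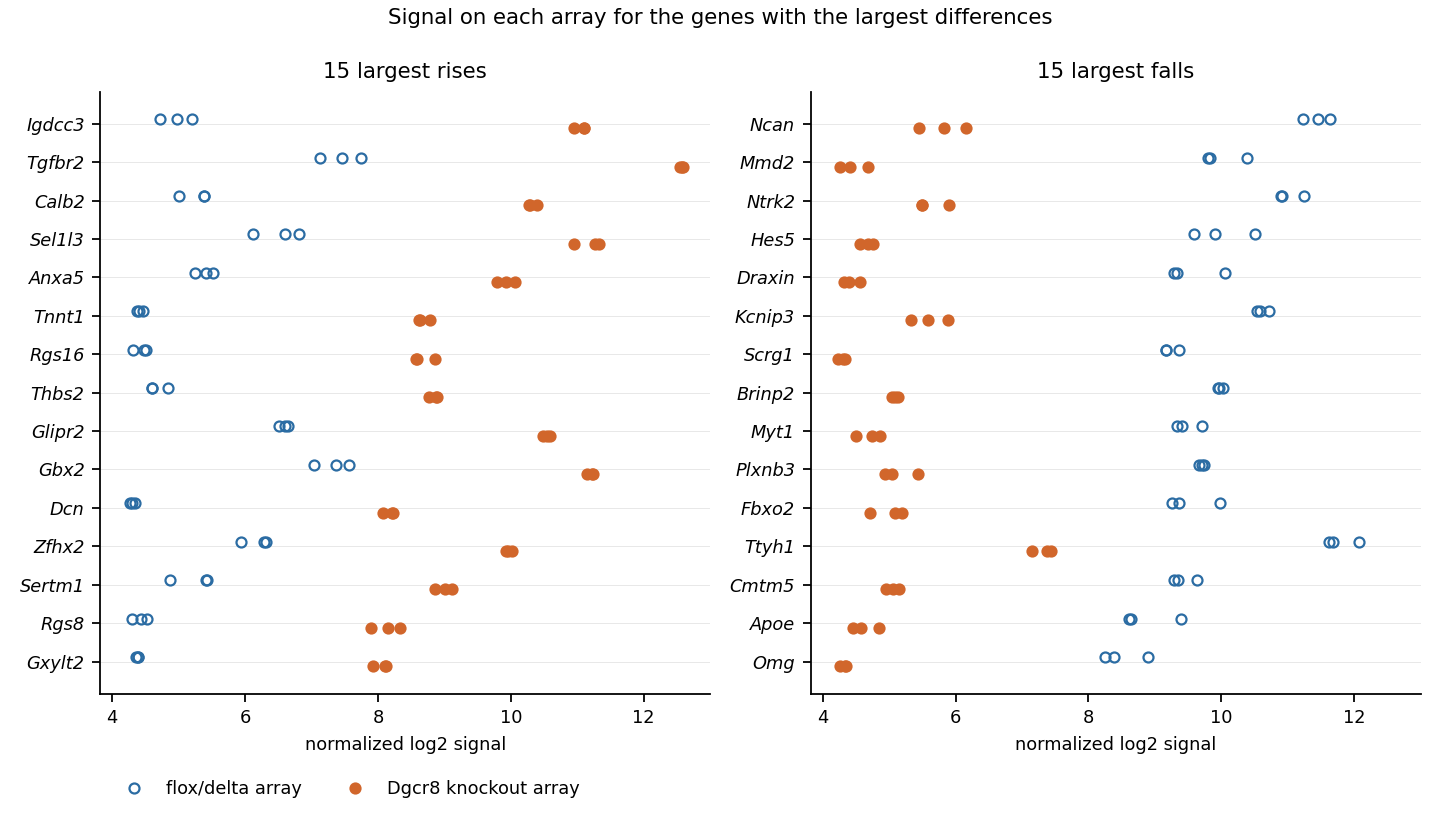
Normalized log2 signal (x axis) on each of the 3 flox/delta arrays (open blue) and 3 knockout arrays (filled orange) for the 15 largest rises (left) and the 15 largest falls (right). The genes were picked among those whose groups do not overlap (62.3% of all genes), so their separation follows from the choice. Knockout levels run from Tgfbr2 at 12.55 to 12.59 to Scrg1 at 4.24 to 4.33.

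Most known targets of let-7 were higher in the knockout. Of 31 measured members of a list of 53, 26 rose (83.9%, against 28.3% of all genes) and 2 fell (6.45%, against 26.6%), with a median difference of 1.24 (0.66 without background correction). At least 2-fold rises were found for 18 members (58.1%, against 6.13%). After Igdcc3, the largest was that of Arid3b, an ARID domain factor, which was at background on all flox/delta arrays (4.48, 4.44 and 4.30) and at 7.14, 7.01 and 7.30 in the knockout, at least 5.32-fold higher. Plagl2, a zinc finger factor, measured 8.09, 8.0 and 8.15 on the flox/delta arrays and 10.38, 10.45 and 10.57 on the knockout arrays. Its groups were separate (2.39 ± 0.09, adjusted p = 1.56e-07). E2f1, a factor of S phase entry, rose by 2.05 ± 0.13 from 8.24, 8.72 and 8.53 to 10.47, 10.67 and 10.50. Its groups did not overlap either. The members that fell were Nr2e1, a nuclear receptor gene of neural stem cells (-1.24 ± 0.12), and the kinase gene Map4k4 (-0.81 ± 0.16). Of the listed genes that could not be tested, 13, among them Hmga2, Lin28a and Igf2bp1, had no kept probe and 9, among them Lin28b, Trim71 and Hmga1, had no named probe.

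The lists for other microRNAs were less one-sided. Of 29 miR-125 targets 11 rose (37.9%, against 28.3% of all genes) and 7 fell (24.1%, against 26.6%), with a median of 0.12. Only 7 rose without knockout replicate 2 or 3, and 4 fell without flox/delta replicate 3. Arid3b, the stress kinase gene Plk3 (1.90 ± 0.15), Arid3a (1.38 ± 0.12) and Dicer1 (1.11 ± 0.10) stood highest. The transcription factor gene Ets1 (-1.23 ± 0.13) and the LIF receptor gene Lifr (at least 1.9-fold lower) were the furthest down. In the miR-17 and miR-106 family list 13 of 25 rose and 7 fell (median 0.27). Tgfbr2 and E2f1 belong to it, and so do the cyclin gene Ccnd2 (1.47 ± 0.16) and Bcl2l11, the death-promoting Bim (1.30 ± 0.15, and 0.32 to 1.15 on other probes). Vegfa (-1.38 ± 0.12) and Ccng2 (-1.23 ± 0.12) on that list fell. Targets of miR-124, a neuronal microRNA, had 10 rises in 20 and 1 fall, with Anxa5, the galactosyltransferase gene B4galt1 (2.15 ± 0.18), the scaffold gene Iqgap1 (1.86 ± 0.09) and the laminin gene Lamc1 (1.42 ± 0.09) in front and Sox9 as the member that fell. With normexp and median scaling 2 miR-125 targets fell and 7 of the miR-17 and miR-106 list rose.

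For miR-29, 9 of 19 targets rose, led by the collagen genes Col4a2 (2.17 ± 0.12) and Col5a1 (1.73 ± 0.12) and the matrix gene Sparc (1.66 ± 0.10), while 8 fell (5 without flox/delta replicate 3 or knockout replicate 1 or 3, and 2 with normexp and median scaling), among them the elastin gene Eln (-1.79 ± 0.14) and Mmp2, a matrix protease (-1.03 ± 0.10). Rises and falls numbered 9 and 3 of 21 for miR-21, miR-26 and miR-30 (42.9% and 14.3%, against 28.3% and 26.6% of all genes). On that list Reck, a membrane inhibitor of matrix proteases, was up by 2.28 ± 0.09. For miR-9, rises and falls numbered 4 and 2 of 12 (33.3% and 16.7%). The microtubule gene Map1b was at 3.62 ± 0.12 (but 0.50 to 0.68 on its other probes) and Foxp1 at 1.58 ± 0.14. Of 13 miR-34 targets 3 rose (23.1%) and 4 fell (30.8%), near the shares of all genes. Myc (0.77 ± 0.13) was among the rises, and the receptor kinase gene Axl was lowest (-3.06 ± 0.13). All 7 measured targets of miR-219 and miR-338 passed, 3 up and 4 down (median -0.38), with Hes5 and the growth factor receptor gene Pdgfra (-1.98 ± 0.23) among the falls. With a detection p under 0.01 required on all 6 arrays that median was 0.36.

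Genes of the proteins that make and use microRNAs were mostly higher in the cells without Dgcr8. Of 24 measured genes of processing and silencing 15 rose (62.5%), and Dgcr8 alone fell (median 0.36). Mov10, an RNA helicase that works with Argonaute, was at background on all flox/delta arrays (4.55, 4.80 and 4.71) and at 7.05, 6.79 and 6.90 on the knockout arrays, at least 4.53-fold higher. Ago2, the Argonaute that can cut its target, measured 5.83, 6.01 and 6.22 on the flox/delta arrays and 7.59, 7.28 and 7.42 on the knockout arrays. Its groups were apart (1.41 ± 0.13, adjusted p = 2.07e-05). Tnrc6c (1.46 ± 0.11) and Tnrc6a (1.30 ± 0.09), the GW182 proteins that bind Argonaute and recruit deadenylases, rose as well. Other members were looked at after their values were seen: Drosha, the catalytic partner of Dgcr8, was at 0.30 ± 0.09, the exporter gene Xpo5 at 0.56 ± 0.11 and the Dicer partner gene Tarbp2 at 1.06 ± 0.10. These rises passed but were smaller. None of 33 listed noncoding microRNA host transcripts had a named probe. Of 31 protein-coding host genes 16 rose and 3 fell (median 0.36), with 5 falls without flox/delta replicate 3 and 1 with normexp and median scaling. Among them were Ctdspl, which holds a miR-26a gene (2.08 ± 0.10), Wwp2, which holds miR-140 (1.05 ± 0.09, and 0.54 to 0.96 on other probes), and Aatk, which holds miR-338 (-0.93 ± 0.14).

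**Figure D3:**
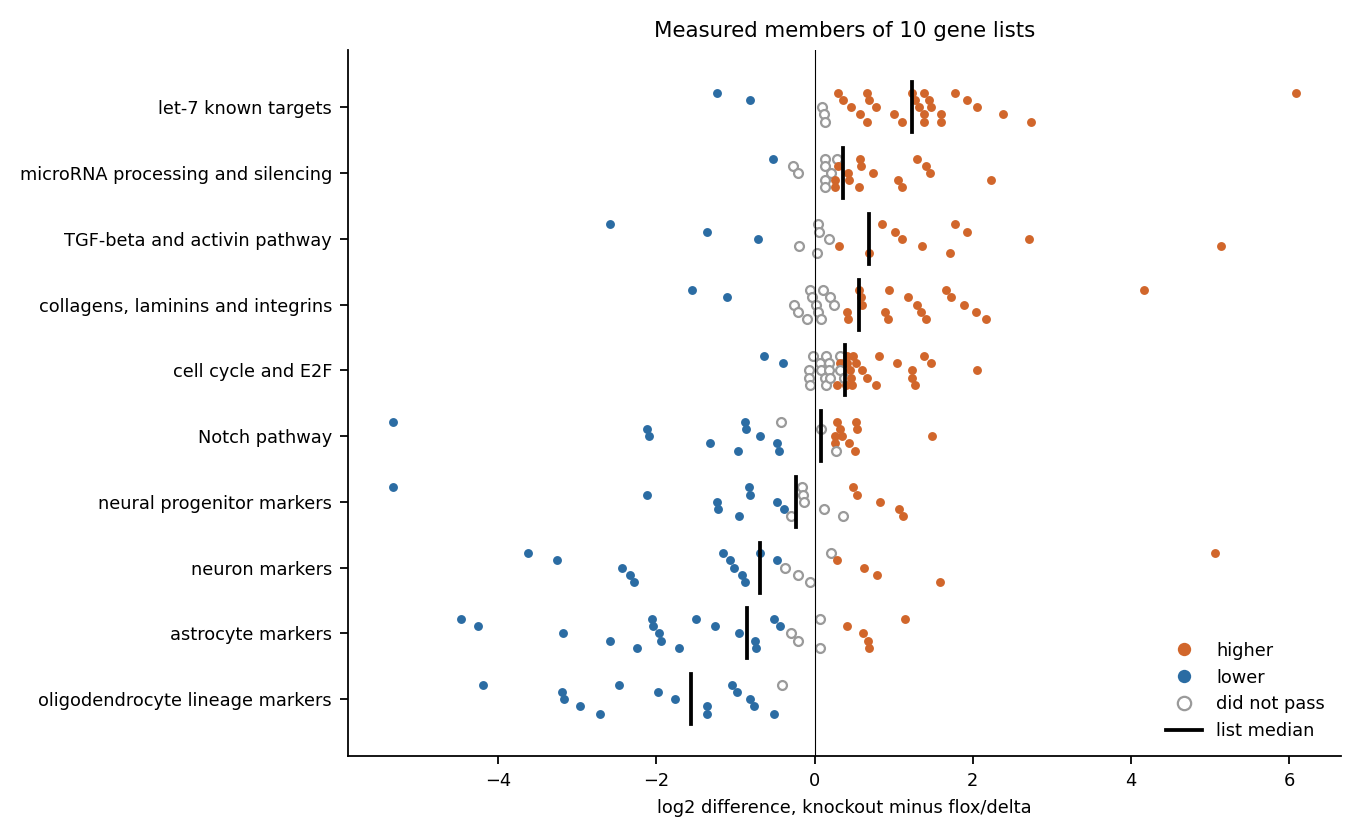
Log2 difference, knockout minus flox/delta (x axis), of every measured member of 10 gene lists (rows): filled orange passed higher, filled blue passed lower, open grey did not pass, and the black bar is the list's median. The medians run from 1.24 for known let-7 targets to -1.56 for oligodendrocyte lineage markers.

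Several receptor and Smad genes of TGF-beta and activin signalling rose. These ligands bind a type II receptor, which recruits a type I receptor and passes the signal to Smad proteins. Of 19 measured genes 11 rose (57.9%), 8 of them at least 2-fold, and 3 fell (median 0.69, or 0.35 without background correction). Beside Tgfbr2, the type I receptor gene Tgfbr1 measured 10.14, 10.12 and 10.04 on the flox/delta arrays and 12.07, 12.09 and 11.94 on the knockout arrays. Its groups did not overlap (1.93 ± 0.09, and 1.20 to 1.27 on other probes). Acvr2b, a type II receptor of activins, was at 9.29, 9.25 and 9.11 on the flox/delta arrays and 11.94, 12.01 and 11.83 on the knockout arrays. The knockout arrays were again all higher (2.71 ± 0.10, adjusted p = 9.22e-08). Smad3, which carries the signal to the nucleus, rose by 1.78 ± 0.08 from 6.51, 6.55 and 6.49 to 8.30, 8.34 and 8.25. The members that fell were Inhbb, a subunit of activin B (-2.59 ± 0.09), and the latent TGF-beta binding proteins Ltbp4 (-1.36 ± 0.10, and -1.34 to -0.37 on other probes) and Ltbp3 (-0.72 ± 0.14, and -0.35 on its other probe). Among ligands, Tgfb3 was higher (1.71 ± 0.13) and Tgfb2 did not pass (-0.20 ± 0.11, adjusted p = 0.162), both looked up after the data were seen. Tgfbr2 and Tgfbr1 are also on the microRNA target lists.

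Counts of extracellular matrix genes differed by list. Collagens, laminins, integrins and related glycoproteins went up in 18 of 31 cases (58.1%) and down in 2 (1 without flox/delta replicate 1 or 3), with a median of 0.56 (0.33 without background correction). Col4a2, a collagen chain of basement membranes, measured 7.59, 7.31 and 7.23 on the flox/delta arrays and 9.66, 9.58 and 9.39 on the knockout arrays. The groups were separate. Col18a1 (2.05 ± 0.17, and 0.68 on its other probe) and the fibulin gene Fbln1 (1.90 ± 0.09, and 0.69 to 2.14 on other probes) rose with it, while Itga7, an integrin subunit, was at least 2.16-fold lower and Fbln2 fell by 1.11 ± 0.09. Fibroblast collagen genes were at background: Col1a1, Col1a2 and Col3a1 were detected on none of the 6 arrays. Of 22 matrix proteoglycans and tenascins of the brain 6 were higher (27.3%, near the 28.3% of all genes) and 9 lower (40.9%, against 26.6%). Beside Ncan, the brevican gene Bcan (-2.59 ± 0.12) and the neuroglycan C gene Cspg5 (-3.58 ± 0.10) fell, and Csgalnact1, an enzyme that starts chondroitin sulphate chains, fell by 1.35 ± 0.11. Tnc, which encodes tenascin C, rose by 1.07 ± 0.12 (0.47 to 1.00 on other probes). Of 9 annexin and S100 genes 6 rose (median 0.75, 0.65 with genes at background in 1 group set to their bound, and 0.25 without background correction). Anxa2 measured 8.44, 8.68 and 8.96 on the flox/delta arrays and 11.68, 11.68 and 11.75 on the knockout arrays. Its groups did not overlap (3.01 ± 0.13), and Anxa6 rose by 1.95 ± 0.11.

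Genes of the oligodendrocyte lineage were lower in the knockout almost throughout. Of 16 measured markers 15 fell (93.8%, against 26.6% of all genes) and none rose (median -1.56, or -1.03 without background correction). However, 5 of the 16 were above background in 1 genotype only, so the filter set their direction and part of this share. Bcas1, a marker of newly formed oligodendrocytes, had log2 signals of 12.23, 12.29 and 12.33 on the flox/delta arrays and 9.07, 9.25 and 9.01 on the knockout arrays. All knockout arrays were lower (-3.17 ± 0.10, adjusted p = 4.42e-08). Gpr17, a receptor of oligodendrocyte precursors, was at 8.11, 7.22 and 7.39 on the flox/delta arrays and at background on the knockout arrays, at least 7.04-fold lower. Cldn11, the tight junction protein of myelin, was at least 5.65-fold lower. The lineage factors Olig2 (-1.36 ± 0.15) and Olig1 (-0.51 ± 0.09), looked up after the data were seen, fell by less, and Vcan was the member that did not pass (-0.42 ± 0.18). Signal summed over the 22 markers with a probe, above background and on the linear scale, was 19530 to 20283 on the flox/delta arrays and 9123 to 10116 on the knockout arrays. The late myelin markers Mag, Mobp and Mog were detected on none of the 6 arrays. With a detection p under 0.01 required on all 6 arrays, 8 members were counted as falls.

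Astrocyte markers fell in 17 of 26 cases (65.4%) and rose in 5, with a median of -0.86 (-0.80 with members at their bound and -0.56 without background correction). Of the 26, 4 were above background in 1 genotype only. After Ttyh1 and Apoe, the growth factor receptor gene Fgfr3 showed 8.40, 7.87 and 8.07 on the flox/delta arrays and 4.97, 4.70 and 5.13 on the knockout arrays. Its groups were apart (-3.18 ± 0.16, but -0.82 on the other probe). Bcan had 12.28, 12.22 and 11.97 on the flox/delta arrays and 9.75, 9.46 and 9.50 on the knockout arrays, again without overlap. Among members looked up after the data were seen, the glutamate transporter gene Slc1a2 was at least 3.41-fold lower and Slc1a3 fell by 0.96 ± 0.09. The members that rose included Aldh1l1, an enzyme of folate metabolism and a marker of astrocytes (1.14 ± 0.18), Htra1 (0.69 ± 0.11, and 0.38 on its other probe) and Id4 (0.67 ± 0.11), and only 3 members rose without knockout replicate 1 or 2. Aqp4, the water channel, did not pass (0.07 ± 0.21). Summed over 33 markers with a probe, the linear signal above background was 41333 to 47361 on the flox/delta arrays and 17567 to 18349 on the knockout arrays, and of these markers Gfap, Glul, Mlc1, Nfia and Slc4a4 were never detected.

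Neuron markers were lower in 12 of 21 cases (57.1%, against 26.6% of all genes) and higher in 5 (23.8%, against 28.3%). Their median was -0.68, -0.48 at the bounds and -0.30 without background correction. Of the 21, 6 were above background in 1 genotype only. Calb2 was by far the highest, and Uchl1, a ubiquitin hydrolase abundant in neurons, rose by 1.59 ± 0.10. Reln, the secreted guide of migrating neurons, fell by 3.25 ± 0.15, the vesicle protein gene Syp by 2.34 ± 0.11, and Nsg2 was at least 10.5-fold lower. The list's summed signal was 7107 to 7953 on the flox/delta arrays and 6965 to 7985 on the knockout arrays, and these ranges overlapped. Without flox/delta replicate 2, 6 members fell, and 7 without flox/delta replicate 1 or 3, while 3 rose without knockout replicate 1 or 3. The median was -0.34, -0.28 and -0.31 without flox/delta replicates 1, 2 and 3. Neural progenitor markers had 5 rises and 9 falls in 20 (median -0.23, and -0.42 without knockout replicate 3): Hes5, the Notch ligand gene Dll1 (-2.11 ± 0.11), Nr2e1 and the Id factor gene Id1 (-1.22 ± 0.11) were lowest, and Cd24a (at least 1.93-fold), Tnc, Gli3 and Hes1 (0.54 ± 0.11) were highest, with 3 rises when any 1 knockout array was left out. Their summed signal was 34731 to 36080 on the flox/delta arrays and 31494 to 32374 on the knockout arrays. The part of these cell type shifts in the other differences was not tested.

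Markers of mesenchymal, endoderm and mesoderm, endothelial and pluripotent cells were scarce. Of 20 mesenchymal and smooth muscle markers with a probe 12 were never detected. Of the 8 tested 3 rose (Dcn, Col5a1 and Cnn2, the last by 0.60 ± 0.13), and Thy1, a surface protein also found on neurons, was at least 4.86-fold lower. Their summed signal was 315 to 368 on the flox/delta arrays and 714.6 to 858 on the knockout arrays. The part of this shift in the matrix genes above was not tested. Of 4 endoderm and mesoderm markers the chemokine receptor gene Cxcr4 rose (1.19 ± 0.15), and the summed signal of that list was 40.1 to 67.5 on the flox/delta arrays and 117 to 160 on the knockout arrays. Neural crest and Schwann cell markers were less scarce, and of the 4 tested 2 fell and 1 rose. Their median was -0.79, or -0.37 with the 9 arrays of hybridization 1 together. The myelin gene Pmp22 rose by 1.81 ± 0.11, and the endothelin receptor gene Ednrb fell by 2.10 ± 0.12. That list's summed signal was 5147 to 6682 on the flox/delta arrays and 2153 to 2319 on the knockout arrays. The endothelial receptor gene Tek was at least 1.43-fold higher, with Cdh5, Flt1, Kdr, Pecam1 and Tie1 never detected. Pluripotency markers had 1 rise, Klf2 (1.51 ± 0.18), and 1 fall, Klf4 (at least 3.66-fold), in 6 tested, and Fgf4, Tdgf1, Utf1, Dppa3 and Tcl1 were never detected.

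Several transcription factor genes of glial fate fell. Of 12 Sox and nuclear factor I genes 7 fell and 1 rose (median -0.55, or -0.28 without background correction), and 4 fell with normexp and median scaling. Sox9, needed for the switch of progenitors to glia, measured 9.05, 9.20 and 8.88 on the flox/delta arrays and 6.90, 6.97 and 7.10 on the knockout arrays. Its groups did not overlap (-2.06 ± 0.11, adjusted p = 8.79e-07). Its relative Sox8 fell by 2.05 ± 0.12, Nfix by 1.94 ± 0.16 (-1.0 on its other probe) and Sox2 by 0.83 ± 0.12 (-0.29 on its other probe), while Sox13 rose by 1.13 ± 0.13. Of 28 homeobox and patterning genes 7 rose (25%, against 28.3% of all genes) and 11 fell (39.3%, against 26.6%). With normexp and median scaling 6 of them fell. Besides Gbx2, the midbrain and anterior hindbrain genes En2 and En1 were higher. En2 had 8.91, 9.12 and 8.99 on the flox/delta arrays and 10.92, 10.95 and 10.86 on the knockout arrays. It rose by 1.90 ± 0.09 without overlap, En1 by 1.95 ± 0.13 and the homeobox gene Pbx2 by 1.55. Hoxa5 and Hoxa7, which belong to more posterior positions, were lower. Hoxa5 had 9.88, 9.83 and 9.81 on the flox/delta arrays and 7.19, 7.23 and 7.10 on the knockout arrays. All knockout arrays were below all flox/delta arrays (-2.67 ± 0.09), and Hoxa7 fell by 1.38 ± 0.11. Irx3 (-1.53 ± 0.11) and Msx1 (at least 2.66-fold) were also lower, and a pattern of position over the list was not tested.

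Notch pathway genes were called in both directions, 10 higher and 10 lower of 23 measured. Their median was 0.09, but -0.16 with the 9 arrays of hybridization 1 fitted together and 0.26 with a detection p under 0.01 on all 6 arrays. In this pathway a ligand on 1 cell triggers cleavage of Notch on its neighbour, and the freed fragment joins the DNA-binding protein Rbpj to switch on effectors. The ligand gene Dll1 was lower, with 9.77, 9.48 and 9.49 on the flox/delta arrays and 7.51, 7.46 and 7.43 on the knockout arrays. Its groups were apart (-2.11 ± 0.11). Among effectors, Hes5 (above) and Nrarp, a feedback inhibitor (-2.09 ± 0.12), fell, while Hes1 rose by 0.54 ± 0.11. The glycosyltransferase gene Mfng fell by 1.32 ± 0.23, the ubiquitin ligase gene Dtx4 rose by 1.48 ± 0.13 and the protease gene Adam17 by 0.52 ± 0.10. Most rises were small: 5 passed without flox/delta replicate 3 or knockout replicate 2, 6 without flox/delta replicate 2 or knockout replicate 3, and 4 with normexp and median scaling.

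The promoters below, the 250 bases before the annotated start, are those of Notch pathway genes that both passed and held the motif searched. Of these genes the effector Hes5 fell, and Lfng, a glycosyltransferase gene of Notch (0.29 ± 0.11), rose. The promoters come from RefSeq with build GRCm38.p6. Capitals mark matches to GTGGGAA, the core that Rbpj binds, or to its reverse complement TTCCCAC.
Hes5, chr4:154960673-154960922, plus strand: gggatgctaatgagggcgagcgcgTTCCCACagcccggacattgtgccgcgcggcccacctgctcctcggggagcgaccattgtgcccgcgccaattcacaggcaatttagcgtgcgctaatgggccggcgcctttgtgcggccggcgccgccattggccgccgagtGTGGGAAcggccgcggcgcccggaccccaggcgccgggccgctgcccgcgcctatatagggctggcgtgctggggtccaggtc
Lfng, chr5:140607091-140607340, plus strand: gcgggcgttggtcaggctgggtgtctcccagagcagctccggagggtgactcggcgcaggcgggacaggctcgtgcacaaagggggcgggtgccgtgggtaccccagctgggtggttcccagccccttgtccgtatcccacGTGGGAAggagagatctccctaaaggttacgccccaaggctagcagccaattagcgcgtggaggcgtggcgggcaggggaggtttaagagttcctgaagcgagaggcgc
Hes5 held 2 matches, which start 226 and 83 bases before the gene's start, and Lfng held 1, at 109 bases. In the table, 5.42% of 32851 promoters held a match on either strand. Of the genes tested here that had a promoter, 6.17% held one, against 6.1% of those higher in the knockout and 6.98% of those lower. Of 27 Notch pathway genes with a promoter 4 did, Hes5, Hey2, Lfng and Psen2. Hey2 was not measured and Psen2 did not pass, so their promoters are not shown. A match is a description of these letters only.

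Genes of BMP signalling, which favours astrocytes, were lower more often than higher, with 7 of 14 down and 1 up (median -0.33, -0.15 without background correction and -0.19 without flox/delta replicate 1). The ligand gene Bmp7 fell by 1.12 ± 0.14 and the target genes Id1 and Id2 by 1.22 ± 0.11 and 0.98 ± 0.09 (-0.49 on the other Id2 probe), while Id4 was the member that rose. In the Wnt list 8 of 25 rose (32%, near the 28.3% of all genes) and 4 fell (16%, against 26.6%). Its ligands moved apart: Wnt5a measured 9.60, 9.34 and 9.25 on the flox/delta arrays and 11.61, 11.39 and 11.40 on the knockout arrays, a rise of 2.07 ± 0.12. Wnt7b measured 8.69, 8.38 and 8.58 on the flox/delta arrays and 6.27, 5.85 and 6.07 on the knockout arrays, a fall of 2.49 ± 0.13. In neither gene did the groups overlap. The receptor gene Fzd6 rose by 1.29 ± 0.13 and Fzd8 by 1.19 ± 0.09, and Lgr5 was at least 4.2-fold lower. Growth factor receptor and ERK feedback genes had 10 rises and 7 falls in 20. The feedback genes Dusp6 (1.60 ± 0.17) and Spry4 (1.27 ± 0.20) rose with the receptor gene Fgfr1 (1.19 ± 0.10, and 0.64 on its other probe), whereas Ntrk2, Fgfr3, Pdgfra and Ntrk3 (at least 2.44-fold, with a difference of -0.63 on its other probe) were lower. Of 12 genes of the insulin-like growth factor system 6 rose and 3 fell (1 without any 1 flox/delta array). The rises were led by Igf2r, the receptor that removes Igf2 (2.05 ± 0.10), and Irs2, a docking protein (1.68 ± 0.13). Igfbp7 was at 7.79, 7.83 and 7.63 on the flox/delta arrays and at background on all knockout arrays, at least 7.95-fold lower, and Igfbp4 fell by 1.95 ± 0.11.

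Cell cycle genes were higher in 21 of 38 cases (55.3%) and lower in 2 (median 0.39). The largest differences were those of E2F factors and G1 cyclins: after E2f1 came Ccnd2, the repressor gene E2f6 (1.38 ± 0.11) and E2f5 (1.27 ± 0.10). Ccnd2 measured 9.29, 9.86 and 9.92 on the flox/delta arrays and 11.15, 11.23 and 11.10 on the knockout arrays, and its groups did not overlap. Several of these genes are known let-7 or miR-17 targets and stand on those lists too. Cdc25c (-0.64 ± 0.13) and the centromere histone gene Cenpa (-0.39 ± 0.09) fell, although neither passed with normexp and median scaling (adjusted p = 0.0618 and 0.28), under which 13 members rose. Of 11 cell cycle inhibitors 6 fell and 3 rose (median -0.47). Cdkn2c, an inhibitor of Cdk4 and Cdk6, had 9.48, 9.23 and 9.32 on the flox/delta arrays and 7.66, 7.59 and 7.73 on the knockout arrays. It fell by 1.69 ± 0.10 without overlap (-0.89 on its other probe), and Ccng2 and Cdkn2d (-0.91 ± 0.09) also fell. The p53 target list had 5 rises (25%, against 28.3% of all genes) and 7 falls (35%, against 26.6%) in 20. Plk3 was highest there, and the stress sensor genes Sesn1 (-1.17 ± 0.13) and Ddit4 (-1.14 ± 0.12) were lowest. In the Bcl2 family 3 of 13 rose (23.1%, against 28.3% of all genes) and 4 fell (30.8%, against 26.6%). Only 2 fell without flox/delta replicate 2 or 3 or knockout replicate 3. Bcl2l11 rose, the survival gene Mcl1 rose by 0.61 ± 0.09 and the death-promoting Bad fell by 1.21 ± 0.09. With normexp and median scaling 1 inhibitor rose, 3 p53 targets rose and 4 fell, and 1 Bcl2 family gene fell.

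Stress and metabolic genes differed by pathway. Of 34 genes of the amino acid and unfolded protein responses 17 rose and 3 fell (median 0.28). Chac1, an enzyme that degrades glutathione, had 7.18, 7.46 and 7.44 on the flox/delta arrays and 9.79, 9.95 and 9.70 on the knockout arrays. The groups were separate (2.46 ± 0.11), and Nupr1 (1.46 ± 0.11), the amino acid transporter gene Slc7a3 (1.32 ± 0.15) and Mthfd2 of folate metabolism (1.22 ± 0.14) followed. Subunits of the mitochondrial respiratory chain were lower in 16 of 32 cases and higher in none, by at most 0.99 ± 0.09 (Ndufb3), with a median of -0.25 and none changed 2-fold. Cytosolic ribosomal protein genes hardly took part, with 2 of 22 lower, among them Rpl22 (-0.67 ± 0.08). Glycolysis and hypoxia genes had 11 falls, such as the glucose transporter gene Slc2a3 (-2.67 ± 0.12) and the aldolase gene Aldoc (-1.72 ± 0.10), and 5 rises (3 without any 1 knockout array) in 24. Lysosomal genes were lower in 10 of 24 cases, with the protease gene Ctsf (-1.22 ± 0.15) and Hexa (-0.93 ± 0.09) lowest, and higher in 2. Of 24 glutathione and antioxidant genes 10 fell, Gstm1 most (-1.89 ± 0.13, but -0.23 on its other probe), and 4 rose. Cholesterol synthesis genes had 4 rises and 4 falls in 19 (21.1% each, against 28.3% and 26.6% of all genes), with Hsd17b7 up by 1.20 ± 0.11. These counts were sensitive to scaling: with normexp and median scaling 4 respiratory chain genes fell (9 without both dimmest arrays, chosen after seeing the data), 4 lysosomal genes fell and none rose, 5 antioxidant genes fell and 2 rose, 7 glycolysis genes fell, 2 cholesterol genes rose and 2 fell, and 1 ribosomal protein gene fell. Rises numbered 1 for lysosomal genes without flox/delta replicate 2 or knockout replicate 1 or 3 and 4 or 5 under other settings, and 2 for antioxidant genes without flox/delta replicate 2 or knockout replicate 1.

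Among further groups, 8 of 15 imprinted genes rose and 3 fell (median 0.35). Nnat, which encodes the membrane protein neuronatin, had 9.20, 8.30 and 8.73 on the flox/delta arrays and 11.12, 10.60 and 11.07 on the knockout arrays, and Snrpn fell by 1.42 ± 0.10. The groups did not overlap for Nnat (2.19 ± 0.22). Of 26 epigenetic regulators 11 rose and 2 fell, with the Polycomb genes Cbx2 (1.55 ± 0.11) and Ring1 (1.09 ± 0.09) highest. Ion channel genes had 11 rises, such as the potassium channel gene Kcna2 (1.84 ± 0.13), and 13 falls (7 or 8 without any 1 flox/delta array), such as Kcnmb4 (-3.04 ± 0.15), Kcnd2 (at least 5.42-fold) and the glutamate receptor gene Gria2 (-1.74 ± 0.11), in 32. Axon guidance genes had 11 rises in 36 (30.6%, near the 28.3% of all genes) and 7 falls (19.4%, against 26.6%). Among the rises were the semaphorin receptor gene Plxna2 (1.60 ± 0.09) and the ephrin receptor gene Ephb4 (1.47 ± 0.13). Plxnb3 and the ephrin receptor gene Epha5 (-1.88 ± 0.10) were lowest. Of 16 immune and interferon genes 6 rose, Rsad2 most (1.14 ± 0.20), and 3 fell, the adhesion gene Vcam1 most (-1.98 ± 0.13). With normexp and median scaling 3 immune genes rose and no epigenetic regulator fell, and 1 such regulator fell without flox/delta replicate 3 or any 1 knockout array.

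**Figure D4:**
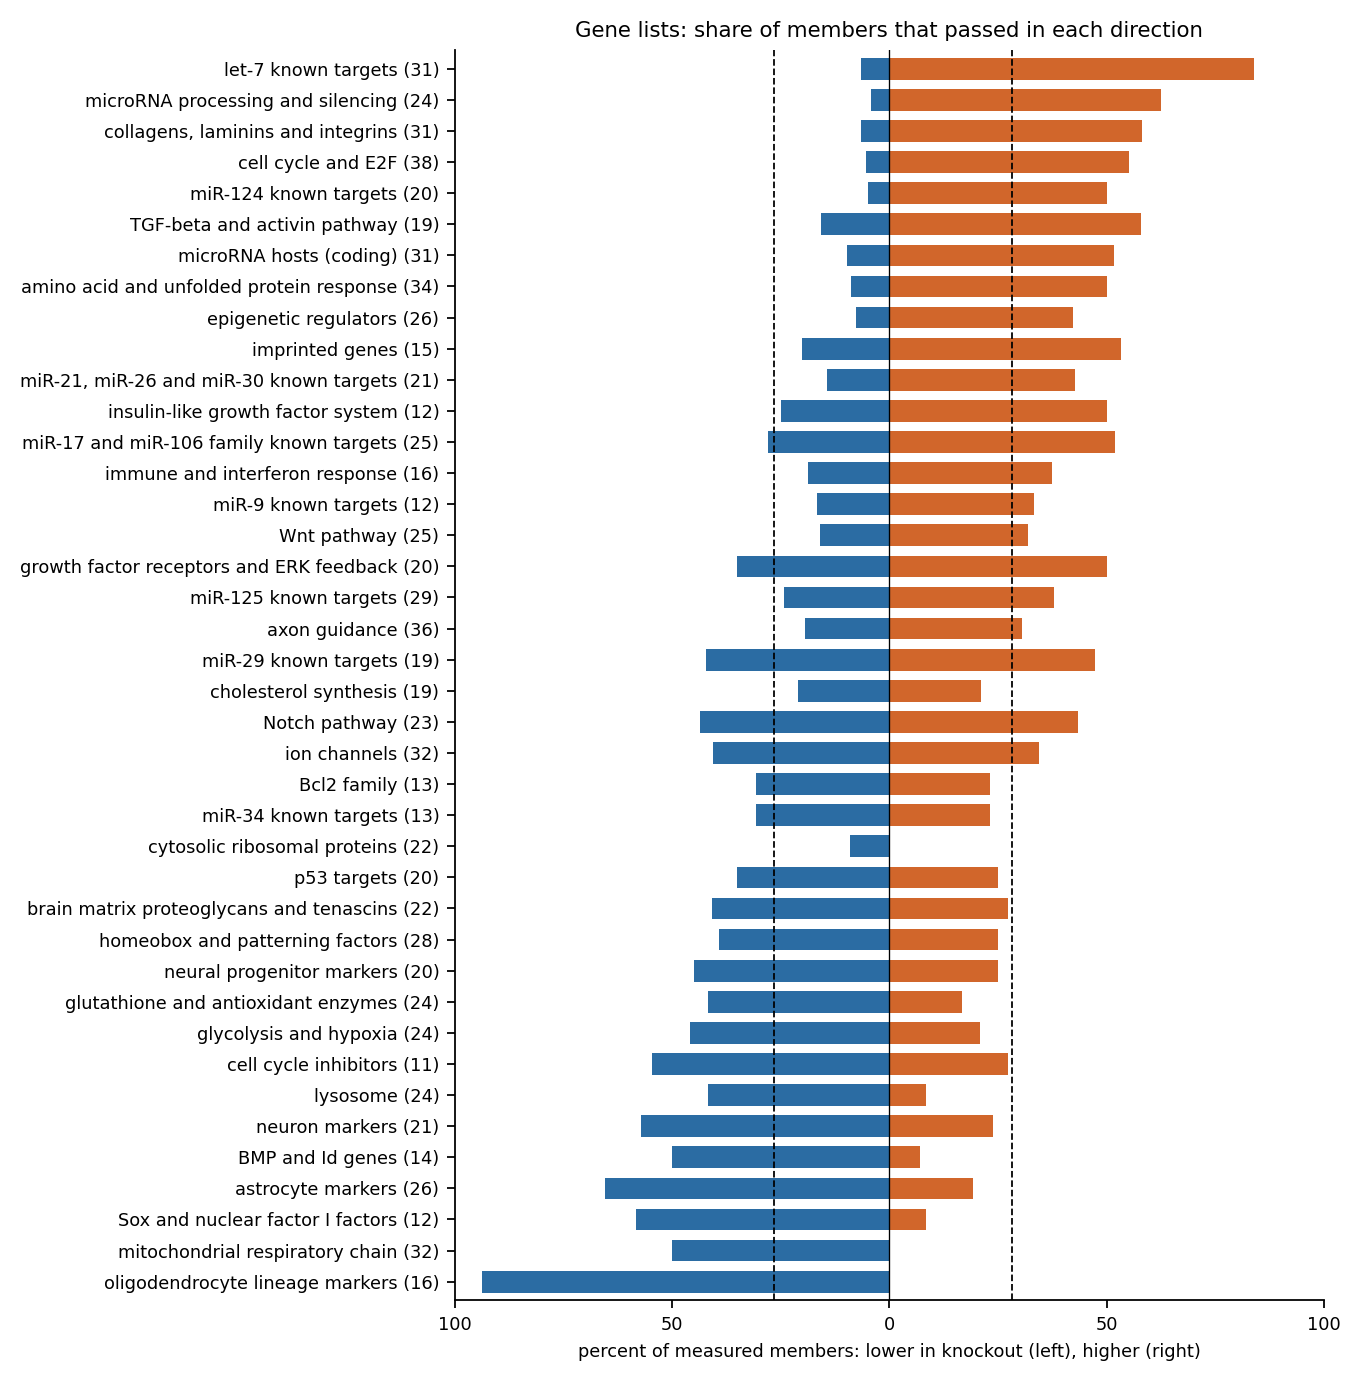
For each gene list with at least 10 measured members (number in brackets), bars give the percent of those members that passed higher in the knockout (orange, right) and lower (blue, left), and dashed lines give the shares over all genes, 28.3% and 26.6%. Known let-7 targets have the longest bar to the right (83.9%) and oligodendrocyte lineage markers the longest to the left (93.8%).

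Whether the genes changed by Dgcr8 loss moved when microRNAs were given back could be read from separate arrays of knockout GPCs, with let-7 (3 arrays) or miR-125 (3 arrays) against mock, all in hybridizations 2 and 3. None of these arrays entered the comparison above, though both microRNA comparisons share mock arrays with each other and are given side by side only. Under let-7, genes that were higher in the knockout had a median log2 difference of -0.12 and genes that were lower had 0.15, against -0.01 over all 9433 genes. For genes changed at least 2-fold the medians were -0.16 and 0.30. Of the genes higher in the knockout 69% were below 0 under let-7, against 51.9% of all genes and 28.8% of the genes lower in the knockout. Under miR-125 the medians were -0.11 and 0.11, against -0.02 over all 9326 genes, and -0.19 and 0.15 for 2-fold changes.

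These shifts were of many genes by a little. Single genes rarely passed: under let-7 only 2 of 9433 (0.0212%) did, both upward, and 894 were higher and 830 lower at an unadjusted p under 0.05. They were Cdkn2b, an inhibitor of Cdk4 and Cdk6 (1.93 ± 0.13, adjusted p = 0.0369, limma), and Ramp2, a receptor partner (1.56 ± 0.11, adjusted p = 0.0369), named after their values were seen. Under miR-125 none of 9326 (0%) passed, with 883 higher and 959 lower at an unadjusted p under 0.05. The labels say that the replicate numbers of these groups mark separate tamoxifen treatments, and with the replicate as a block 6 genes passed under let-7 and 3 under miR-125 (Ccl7, Actg2 and Rasl11a, again named afterwards). The other counts and the SE values given for these arrays come from fits without that block, which leave this pairing out. The known let-7 targets that rose in the knockout had a median of -0.61 under let-7 over 26 genes, and 96.2% of them were below 0. The 11 risen miR-125 targets had a median of -0.69 under miR-125, with 90.9% below 0. With the other microRNA the medians were also below 0. The let-7 targets had a median of -0.30 under miR-125 (80.8% below 0), and the miR-125 targets had -0.42 under let-7 (63.6% below 0). Of all genes higher in the knockout, 69% were below 0 under let-7 and 64.8% under miR-125, with medians of -0.12 and -0.11. The 63.6% thus lay under the share of all risen genes, and the 2 target lists share Arid3b. Igdcc3 was at -0.87 ± 0.32 under let-7 and -0.97 ± 0.28 under miR-125, Arid3b at -0.69 ± 0.31 and -0.91 ± 0.24, and Tgfbr2 at 0.25 ± 0.13 and -0.44 ± 0.30. Ncan stood at 0.28 ± 0.22 and 0.95 ± 0.45 and Hes5 at -0.39 ± 0.42 and -0.53 ± 1.49. None of these 5 genes passed in either comparison.

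**Figure D5:**
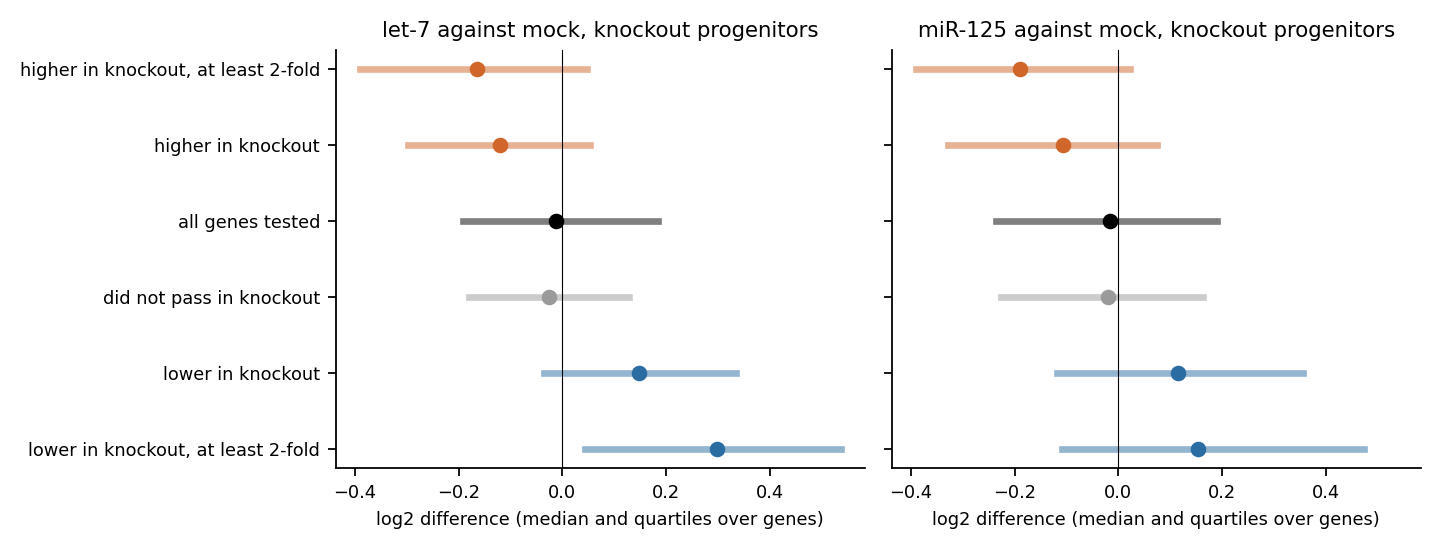
Points are medians and bars the quartiles over genes of the log2 difference (x axis) under let-7 (left) or miR-125 (right) against mock in knockout progenitors, for sets of genes (rows) chosen by their change in the Dgcr8 comparison. Sets higher in the knockout have medians below 0 (-0.12 and -0.11) and sets lower in the knockout have medians above 0 (0.15 and 0.11).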

How the data were processed

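Per the file headers, the deposited non-normalized table gives an intensity for each of 25697 probes on 19 arrays, with the scanner's detection p-value beside it, and background had not been subtracted, as far as the values show. The authors' deposited table of normalized intensities for this comparison, quantile normalized among its 6 arrays as far as the values show, was used only as an alternative. It numbers replicates 1 and 3 of both groups the other way round, so numbering here follows the non-normalized table. The submitters' processing notes name limma, with no version or role.

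The raw intensities of the 6 arrays were background corrected by normexp, with an offset of 16, then quantile normalized and log2 transformed, by neqc of limma 3.58.1 in R 4.3.3. Probes detected at p under 0.05 on 3 or more arrays were kept, which left 12356 probes and 9129 genes, 8403 of them with a symbol, and the brightest kept probe stood for its gene. Symbols came from the platform annotation, updated to RefSeq. All adjusted p-values are from limma (linear model and empirical Bayes, 2-sided), adjusted by Benjamini-Hochberg across every gene tested, and the threshold was 0.05. The procedure was tested on simulated data. The let-7 fit carried a term for the hybridization, and the miR-125 arrays and their mock arrays were all of hybridization 3.

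The members and the 49 gene lists were chosen with earlier results of these data known. Named were Dgcr8, Igdcc3, Tgfbr2, Ncan, the 15 largest rises and the 15 largest falls that passed without overlap of the groups, and up to 4 members a list in each direction with the largest change among those that passed. Other genes named in the text were picked after their values were seen. In the let-7 and miR-125 comparisons the replicate number marks a shared tamoxifen treatment, per the labels. In the Dgcr8 comparison nothing says so, and same-numbered arrays deviated from their group means with correlations across genes of 0.106, 0.239 and 0.0841, not all above 0.1. Other background corrections, scalings, filters, probe rules, array sets and fits were tried, as was leaving out each array. The differentiated arrays were not analysed here, except in 1 alternative that fitted all 9 arrays of hybridization 1.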

Additional observations from a re-analysis of the deposited data

How the results depend on the processing

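Of the 31 genes made up of Dgcr8 and the markers and largest changes, direction and threshold were kept in 470 of 474 alternatives. The exceptions were Dgcr8 with normexp and median scaling and Draxin without flox/delta replicate 1, 2 or 3. All of these genes but Dgcr8 were among the largest changes of these same data, so this count was largely fixed in advance. Cases in which a gene dropped out of the test are not among the exceptions. With normexp and median scaling 2882 genes passed, 1652 higher and 1230 lower, and 0 microRNA processing genes fell, 4 Notch genes rose, and 13 cell cycle genes rose while 0 fell; the median of p53 targets was 0.00485. The cause was not tested. Quantile normalization with no background correction and the deposited normalized table each gave 261 and 295 genes at least 2-fold higher and lower, and an offset of 50 gave 365 and 393, both of which shrink differences of dim probes by construction. A detection p under 0.01 on all 6 arrays, which leaves fewer genes, gave falls for 10 astrocyte, 8 oligodendrocyte and 5 neuron markers and 1 collagen, laminin or integrin gene, rises for 2 neuron markers, and medians of 0.36 for miR-219 and miR-338 targets and -0.0200 for the 2 endothelial markers. That endothelial median was -0.00181 with all probes kept. With trend and robust moderation 6 Notch genes rose. The Notch median was -0.16 with the 9 arrays of hybridization 1 together. Without both dimmest arrays (chosen after seeing the data) 3617 genes passed, 3 neuron markers rose and 5 fell, 4 Notch genes rose, 1 collagen, laminin or integrin gene fell, and the endothelial median was -0.11. A test against a 1.5-fold difference passed 1339 genes. Medians under let-7 of genes changed at least 2-fold were -0.16 (higher) and 0.30 (lower), and -0.19 (higher) under miR-125.

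Leaving out 1 array gave 4188 to 4506 genes, 2075 to 2410 higher and 2032 to 2224 lower, and 500 to 592 and 510 to 632 at least 2-fold higher and lower. The ranges were 3 to 6 rises of astrocyte markers, 3 to 5 rises and 6 to 12 falls of neuron markers, 10 to 15 falls of oligodendrocyte markers, 5 to 10 rises of Notch genes, and 1 to 2 falls each of microRNA processing and of collagen, laminin or integrin genes. The endothelial median ran from -0.0863 to 0.407, with -0.00977 and -0.0863 without knockout replicates 1 and 3. With the replicate block 5173 genes passed in the Dgcr8 comparison, against 5005, and each array correlated best with its own number, as a hint from the data and not from the design. Replicate 3 was the dimmest array of each group, with detected probes at 2.28 and 2.37 times the background against 2.71 to 3.26 on the other 4 arrays, which limits what dim probes can show.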

Other observations

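Groups of genes picked after their values were seen are given here as values, with no explanation. Over all genes tested 28.3% rose and 26.6% fell. Of 6 measured Tle genes, a family that includes the Groucho corepressors but not only corepressors, 5 fell and 1 rose, with a median difference of -1.82. Tle1 had log2 signals of 9.67, 9.29 and 9.43 on the flox/delta arrays and 7.34, 7.38 and 7.12 on the knockout arrays. Its groups did not overlap (-2.18 ± 0.12). Tle2 (-2.12 ± 0.13), Tle5 (-2.08 ± 0.10) and Tle6 (-1.56 ± 0.10) also fell, Tle3 was at least 1.21-fold lower, and Tle4 rose by 1.22 ± 0.09.

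Among 5 measured PDZ-LIM genes, whose proteins bind the actin cytoskeleton, 3 rose and 1 fell. Pdlim7 had 5.38, 5.56 and 5.58 on the flox/delta arrays and 8.31, 8.65 and 8.63 on the knockout arrays, a rise of 3.03 ± 0.12 without overlap. Pdlim4 rose by 2.76 ± 0.17 and Pdlim1 by 2.56 ± 0.09, whereas Pdlim5 fell by 0.30 ± 0.10 and Pdlim2 did not pass (0.04 ± 0.17).

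The 20 genes with a probe nearest to Dgcr8 on chromosome 16 had 13 measured members, of which 1 rose, 5 fell and the median was -0.17. Dgcr6 had 8.76, 8.63 and 8.83 on the flox/delta arrays and 7.20, 6.86 and 7.34 on the knockout arrays. It fell by 1.60 ± 0.13, Slc25a1, the mitochondrial citrate carrier, fell by 0.78 ± 0.11 and the histone chaperone gene Hira by 0.57 ± 0.15 (0.10 on its other probe), while Txnrd2, a mitochondrial thioredoxin reductase, rose by 0.72 ± 0.11. Histone genes were mixed, with 14 higher and 18 lower of 45 measured (median -0.02). The measured H2bc genes were all lower, such as H2bc4 (-1.78 ± 0.12), while H2ac, H3c and H4c genes were called in both directions.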
